A study of Mus musculus with 12 samples.

Results

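This section describes newborn mouse skin epidermis in which Llgl1 and Llgl2 were deleted and 1 Trp53 allele was removed at the same time, set against control epidermis. The members were chosen by genotype label, not by any measured value, and are 3 libraries of the combined mutant and 3 control libraries, 6 of the 12 libraries in the series. The combined mutant carried K14-Cre, Llgl1/2 flox/flox and Trp53 +/flox, and the control carried K14-Cre, with no floxed allele named. The other 6 libraries are 3 Llgl cKO (K14-Cre/Llgl1/2 flox/flox) and 3 Trp53 het (K14-Cre/Trp53 +/flox), used here to estimate the spread between mice and to show where the combined mutant differs from either change alone. The K14-Cre transgene is shared by all 4 groups, so an effect of Cre itself is present on both sides of each comparison. K14-Cre expresses Cre recombinase in basal keratinocytes and their descendants, and leaves the genes intact in melanocytes, immune cells and dermal cells that come along with an epidermal sheet.

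Llgl1 and Llgl2 encode homologues of the fly protein Lethal giant larvae. It acts with Scribble and Dlg at the basolateral side of epithelial cells, where it opposes the apical aPKC and Par complex and helps keep cells polarised. Trp53 encodes p53, a transcription factor that arrests or kills damaged cells. In newborn skin the epidermis consists of a basal layer that divides, spinous and granular layers that differentiate, and hair follicles in the middle of forming their first shafts. Follicle progenitors in the matrix give rise to the hair shaft, built of hair keratins bonded by keratin-associated proteins, and to the inner root sheath, a hardened sleeve of other keratins and trichohyalin around the shaft.

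Libraries held 6738720 to 14509507 counts, and the 3 control libraries (6738720, 11692573 and 11739107) and 3 combined mutant libraries (12035408, 12742531 and 11804019) lie within that range. Levels are CPM, counts scaled to a common library size. A gene is said to be called, to rise or to fall when edgeR's quasi-likelihood test, fitted to all 12 libraries with 14582 genes tested, gave an adjusted p (Benjamini-Hochberg) below 0.05. Control 3 stood apart from control 1 and 2, as did Trp53 het 3 within its group: both had fewer hair transcripts and more transcripts of dividing cells. By X- and Y-linked transcripts control was 1 male and 2 females and the combined mutant 1 female and 2 males. Keratinocyte markers were abundant in every library (Krt5 8190 to 10800 CPM and Krt1 26200 to 46800 CPM over the 6 libraries compared).

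Of the targeted genes, Llgl2 (ENSMUSG00000020782, chromosome 11, 115824049 to 115855780, GRCm38) was at 110, 84.9 and 65.4 CPM in control and at 6.12, 12.4 and 7.03 CPM in the combined mutant. Every combined mutant library was below every control, with a log2 fold change of -3.35 (SE 0.30, adjusted p = 0.00047). Llgl1 (chromosome 11, 60699723 to 60714186) was at 173, 127 and 115 CPM in control and at 187, 248 and 211 CPM in the combined mutant, higher in each mutant than in any control and not called (log2 fold change 0.64, SE 0.17, adjusted p = 0.10). These counts cover the whole gene and not the floxed part, so the level of Llgl1 is no check of its deletion. Trp53 (chromosome 11, 69580359 to 69591873) was at 130, 109 and 123 CPM in control and at 98.3, 67.8 and 65.9 CPM in the combined mutant. The groups did not overlap for Trp53, and its log2 fold change of -0.64 (95% interval -1.15 to -0.13) was not called (adjusted p = 0.24).

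Between combined mutant and control, 182 genes were called, 1.25% of those tested. Of these, 50 were higher (0.343%) and 132 lower (0.905%). The median log2 fold change over all genes tested was -0.0059. Protein-coding genes made up 123 of the 132 that fell and 30 of the 50 that rose, and 17 of those that rose are annotated as pseudogenes. Groups failed to overlap in the downward direction for 9.2% of genes tested and in the upward direction for 7.87%. The genes that fell included hair shaft and inner root sheath genes, 4 members of the Skint family and lipid enzymes of the sebaceous gland. The genes that rose included Bmp2, Fst and Wnt6, ligands or inhibitors of follicle signalling, and the matrix protein gene Sparc.

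Hair keratins fell in the combined mutant. Of the 9 type I hair keratins tested, 6 fell and 0 rose (median log2 fold change -4.81). All 9 had every combined mutant library below every control library, against 9.2% of all genes tested. Type I hair keratins are the acidic partners of the shaft's filaments. Krt33a was at 84.2, 77.1 and 12.3 CPM in control and at 3.06, 0.769 and 2.26 CPM in the combined mutant (log2 fold change -4.81, SE 0.97, adjusted p = 0.045). Krt33b was at 43.8, 43.4 and 6.53 CPM against 1.1, 0.0854 and 0.167 CPM (-6.04, SE 1.03, adjusted p = 0.031). For both keratins control 3 was several times lower than the other controls, yet still above the highest mutant. Krt35, a keratin of the lower shaft that appears early in shaft formation, was at 55.1, 71.2 and 70.0 CPM against 29.9, 16.6 and 16.1 CPM. Its control values lay close together and its change was smaller (-1.65, adjusted p = 0.13, not called). In bulk tissue, fewer cells of a type and less RNA per cell cannot be told apart.

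Type II hair keratins, the basic partners, gave 4 genes that fell among 5 tested (median -4.52). Krt81 was at 79.1, 63.3 and 11.5 CPM in control and 2.90, 0.683 and 0.754 CPM in the combined mutant (log2 fold change -5.11, SE 0.95, adjusted p = 0.035). Krt82, a cuticle keratin, was at 23.7, 22.8 and 7.01 CPM against 1.41, 0.256 and 0.586 CPM (-4.52, adjusted p = 0.031). Krt83 and Krt86 also fell, with log2 fold changes of -3.97 and -5.53 (adjusted p = 0.042 and 0.043). The fifth, Krt84, was the exception and is named after its values were seen: it was at 0.327, 0.425 and 0.161 CPM in control and at 1.18, 2.90 and 1.17 CPM in the combined mutant, higher in each mutant and not called (adjusted p = 0.23). Krt81, Krt83 and Krt86 are close relatives, as are Krt31, Krt33a, Krt33b and Krt34, and the counting could have split or dropped reads that fit several of them.

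**Figure D1:**
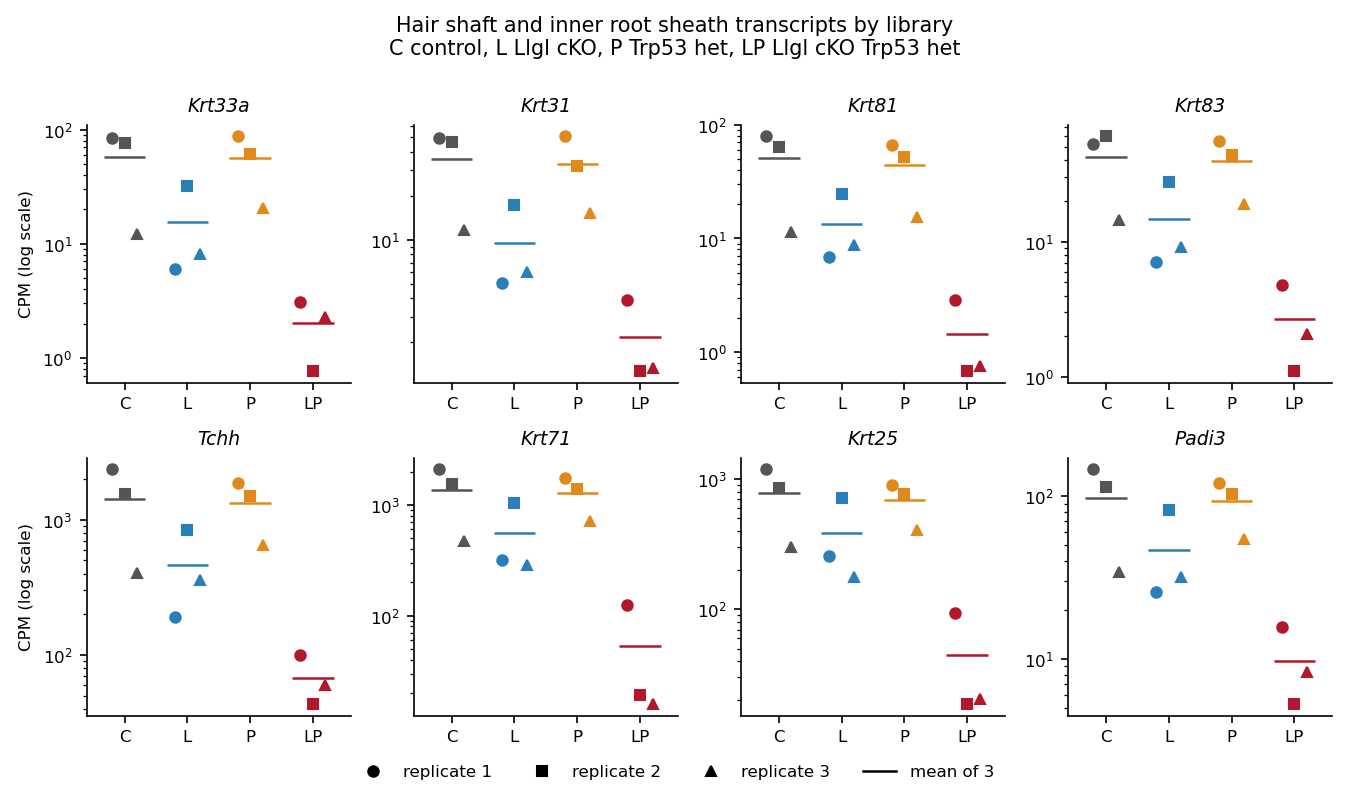
Each panel plots CPM (log scale) in the 12 libraries for a type I hair keratin (Krt33a, Krt31), a type II hair keratin (Krt81, Krt83) or an inner root sheath gene (Tchh, Krt71, Krt25, Padi3), with a bar at the mean of 3 mice and a marker shape per replicate. In all 8 genes the 3 combined mutant libraries lie below the 3 controls, and control 3 lies below control 1 and 2.

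Keratin-associated proteins cross-link the keratin filaments of the shaft. Of 56 genes listed, 54 were in the table and 46 passed the low-count filter, which many of them passed through libraries where they are high. In those 46, 10 fell, 0 rose, and 40 were lower without overlap, against 9.2% of all genes tested. The median log2 fold change of the 46 was -5.97, or -5.65 with the 4 genes at 0 in the combined mutant set to their bound. Their summed level was 1150, 885 and 106 CPM in control and 80.8, 75.2 and 56.9 CPM in the combined mutant. Most of the mutant sum came from Krtap3-2, which moved the other way and is described below. Relative to the control mean, the mean log2 CPM of the list was 1.32, 0.897 and -2.22 in control. In the combined mutant it was -3.23, -4.73 and -4.66, so control 3 was low but above each mutant. At least 1 count was found for 46, 46 and 43 of them in control and for 40, 13 and 17 in the combined mutant, at similar or greater depth. Combined mutant 2 and 3 thus had no read for most of these genes.

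Krtap4-1, a high-cysteine member, had 436 counts summed over control and 2 over the combined mutant, a ratio of 262 (95% interval 72.1 to 2170, covering counting error only). Per library it was at 26.2, 21.9 and 1.53 CPM against 0.157, 0 and 0 CPM (adjusted p = 0.038). Krtap8-1, a high-glycine-tyrosine member and the most abundant of the list, was at 89.8, 88.0 and 13.7 CPM against 5.02, 0.0854 and 0.167 CPM. The groups did not overlap for Krtap8-1, and the change was not called (-5.13, SE 1.16, adjusted p = 0.060), with control values from 13.7 to 89.8 CPM. Krtap3-2, named after its values were seen, moved in the opposite direction: it was at 21.4, 20.8 and 12.3 CPM in control and at 46.4, 64.9 and 47.1 CPM in the combined mutant (1.55, SE 0.54, adjusted p = 0.22, not called). Its neighbours in the gene family Krtap3-1 and Krtap3-3 both fell (adjusted p = 0.045 and 0.048), and reads shared among these similar genes may have been split between them.

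Inner root sheath and companion layer genes gave 7 that fell among 21 tested (median -2.40). Of the 21, 14 were lower without overlap, against 9.2% of all genes tested. Tchh, which encodes the trichohyalin that hardens the sheath, was at 2340, 1530 and 405 CPM in control and at 101, 43.8 and 60.5 CPM in the combined mutant (log2 fold change -4.38, SE 0.76, adjusted p = 0.031). Krt71, a type II sheath keratin, was at 2090, 1540 and 471 CPM against 126, 19.1 and 16 CPM (-4.67, SE 0.96, adjusted p = 0.046). Combined mutant 1 was the highest mutant for both. The type I sheath keratins Krt25, Krt26 and Krt27 fell, with log2 fold changes of -4.13, -4.81 and -4.44 (adjusted p = 0.043, 0.033 and 0.043). Padi3, the deiminase that modifies trichohyalin, was at 146, 114 and 34.2 CPM against 15.7, 5.29 and 8.29 CPM (-3.32, adjusted p = 0.043). Krt17, a keratin of the companion layer and outer root sheath, was at 2000, 1730 and 1510 CPM against 1610, 1330 and 1280 CPM. Its groups overlapped, and the interval of its log2 fold change ran from -0.69 to 0.07.

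Among 29 other proteins of hair differentiation, 8 fell and 0 rose (median -1.04). Mt4, a metallothionein of differentiating squamous epithelium, was at 7.19, 12.1 and 6.05 CPM in control and 1.49, 1.37 and 0.837 CPM in the combined mutant (-2.77, SE 0.49, adjusted p = 0.031). Fam26d was at 25.8, 40.2 and 10.5 CPM against 1.1, 0 and 0 CPM (-6.03, adjusted p = 0.032). By contrast, the transcription factors that direct the matrix and its lineages did not move as a group. Of 24 tested, 0 were called and the median was -0.0349, with 11 above and 13 below zero.

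Most of these genes lie in gene clusters. Between Krt25 and Krt33b on chromosome 11 (99315516 to 100029868, GRCm38, an interval drawn after the values were seen), 19 of 45 tested genes fell and 0 rose. Between Krt83 and Krt71 on chromosome 15 (101431038 to 101743109), 6 of 14 fell and 0 rose.

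The start regions of members that moved together are shown for the called member with the largest fall in each of the 4 hair lists (type I keratins, type II keratins, keratin-associated proteins, sheath) with a single RefSeq promoter entry. Each runs 5′ to 3′ on the gene's strand (minus for all 4) from 250 bases before the start to 50 bases after it, on GRCm38.p6. Capitals mark TATAAA, the TATA box core, and CTTTGA, the core recognised by the Lef1 and TCF factors of Wnt signalling, searched on both strands (also as TTTATA and TCAAAG).
Krt40, chr11:99543171-99543470: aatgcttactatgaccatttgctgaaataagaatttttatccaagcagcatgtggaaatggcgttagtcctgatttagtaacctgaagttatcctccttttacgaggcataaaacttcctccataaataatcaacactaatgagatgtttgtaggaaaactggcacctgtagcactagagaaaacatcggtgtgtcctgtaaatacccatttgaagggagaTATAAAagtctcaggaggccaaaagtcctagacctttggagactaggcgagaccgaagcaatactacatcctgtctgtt
Krt82, chr15:101550610-101550909: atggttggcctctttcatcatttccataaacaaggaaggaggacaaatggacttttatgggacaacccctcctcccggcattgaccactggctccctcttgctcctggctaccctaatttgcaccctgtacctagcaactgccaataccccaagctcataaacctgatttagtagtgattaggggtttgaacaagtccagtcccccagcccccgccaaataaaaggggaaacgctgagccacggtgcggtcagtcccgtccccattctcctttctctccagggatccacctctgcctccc
Krtap4-1, chr11:99628190-99628489: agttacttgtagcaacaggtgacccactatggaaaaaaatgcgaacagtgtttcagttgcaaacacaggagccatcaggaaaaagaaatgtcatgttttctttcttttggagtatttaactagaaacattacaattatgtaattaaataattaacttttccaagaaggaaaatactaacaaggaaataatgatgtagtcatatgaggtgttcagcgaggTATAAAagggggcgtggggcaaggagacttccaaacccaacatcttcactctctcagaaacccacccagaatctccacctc
Krt26, chr11:99337916-99338215: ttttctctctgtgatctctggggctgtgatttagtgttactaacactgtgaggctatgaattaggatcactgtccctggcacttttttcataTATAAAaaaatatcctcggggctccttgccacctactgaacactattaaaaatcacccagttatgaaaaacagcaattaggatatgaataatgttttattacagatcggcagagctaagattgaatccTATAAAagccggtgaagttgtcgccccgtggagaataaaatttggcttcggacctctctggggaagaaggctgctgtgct
TATAAA begins 29 bases before the start in Krt40, 31 in Krtap4-1 and 30 in Krt26, which has a further copy 158 bases before it. Krt82 holds neither set of letters in this window. Of the 81 tested genes of these 4 lists, 65 matched a RefSeq promoter by symbol, and 48 of those (73.8%) hold TATAAA, against 14.2% of 27025 promoters of the same length. CTTTGA is in 20 of the 65 (30.8%) against 16.2% of all. Many of the 65 are neighbours of shared ancestry, so they are not independent sequences, and a match of letters is not a binding site.

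The 81 hair genes of the 4 lists together gave 27 that fell, 0 that rose and 67 lower without overlap, against 9.2% of all genes tested. The median of the 81 was -5.25, or -5.11 with genes at 0 set to their bound. Relative to the control mean, their mean log2 CPM was 1.02, 0.71 and -1.72 in control, -2.05, -0.65 and -1.92 in Llgl cKO, 0.83, 0.44 and -1.23 in Trp53 het, and -2.78, -4.10 and -4.07 in the combined mutant. The combined mutants were the lowest 3 of the 12 libraries, and control 3 lay near the lowest Llgl cKO libraries. The calls in the 4 lists depended on a few libraries. Without control 3, 8 of 9 type I and 4 of 5 type II keratins fell. Without control 1, control 2, Trp53 het 2, combined mutant 2 or combined mutant 3, 0 of either were called. The same held in a fit of the 6 libraries alone, without the low-count filter and with a minimum 1.5-fold change. In each of these the medians were -4.12 or lower. Of the keratin-associated proteins, 10 of 46 were called as reported, 42 with DESeq2, 39 of 47 without control 3 and 46 of 47 without control 3 and Trp53 het 3 together. With sex as a term 27 were called, and with the replicate number as a block 39 were lower and 1 higher. In the fit of the 6 libraries alone, without the low-count filter, with the minimum 1.5-fold change, and without control 1, control 2, Llgl cKO 3, Trp53 het 2, combined mutant 2 or combined mutant 3, 0 were called. Of the 21 sheath genes, 7 were called as reported, 13 with DESeq2, 11 without control 3 and 15 without control 3 and Trp53 het 3 together. The same alternatives gave 0 sheath genes, except that 4 were called without Llgl cKO 3. Without Llgl cKO 1, 4 keratin-associated and 3 sheath genes were called, and the replicate block gave 13 sheath genes. The keratin-associated count was 6 without Trp53 het 1, 26 without Trp53 het 3 and 2 without combined mutant 1. Over all genes tested, 182 were called as reported, 644 with DESeq2 and 351 without control 3. Leaving out control 3 and Trp53 het 3 together gave 1139. Control 3 and Trp53 het 3 stood apart partly by low hair transcripts, so more calls without them are no separate support for a fall.

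Sebaceous gland genes fell in part. Of 29 tested, 6 fell, 0 rose and 12 were lower without overlap (median -0.385), against 9.2% of all genes tested. Scd1, the desaturase that makes monounsaturated fatty acids and a marker of sebocytes, was at 190, 239 and 216 CPM in control and 93.1, 71.0 and 52.0 CPM in the combined mutant (log2 fold change -1.58, SE 0.28, adjusted p = 0.031). Awat2, a wax ester synthase of the gland, was at 13.7, 7.31 and 4.76 CPM against 1.96, 2.22 and 2.01 CPM (-2.03, adjusted p = 0.041). Soat1, which esterifies cholesterol, was at 33.4, 54.8 and 49.0 CPM against 20.2, 14.6 and 11.9 CPM (-1.56, adjusted p = 0.044). The mutant values of Soat1 and Awat2 lay closer together than those of control.

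Plin2, a coat protein of lipid droplets, was at 68.0, 50.8 and 38.4 CPM against 24.3, 24.3 and 16.9 CPM (-1.26, adjusted p = 0.033). The fatty acid elongases Elovl6 and Elovl3 fell, with log2 fold changes of -0.93 and -2.3 (adjusted p = 0.040 and 0.047). Fa2h, the fatty acid 2-hydroxylase, was at 46.6, 48.3 and 31.1 CPM against 9.81, 5.38 and 1.84 CPM (-2.88, adjusted p = 0.043). Fa2h and Elovl3 were the 2 of 28 genes of barrier lipid synthesis that fell, and 0 of that list rose. Of 24 cholesterol synthesis genes 0 were called, with 20 below zero (median -0.289). Krt79, the most abundant gene of the sebaceous list, was at 1830, 1550 and 1240 CPM against 1300, 1550 and 1170 CPM, with overlapping groups (adjusted p = 0.69). The summed level of 14 adipocyte markers not shared with other lists was 23.5 to 45.6 CPM in control and 14.9 to 19.7 CPM in the combined mutant. Adipoq and Plin1 were at or near 0 in both groups (0.242 CPM or less). The part of fat cells in these falls was not tested. Without control 1, control 2, Trp53 het 2, combined mutant 2 or combined mutant 3, 0 of the 29 sebaceous genes were called. A minimum 1.5-fold change also gave 0, and a fit of the 6 libraries alone gave 2.

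Of the signalling genes of follicle growth, Bmp2, Fst and Wnt6 rose. Bmp2, a BMP ligand made by matrix and differentiating cells, was at 52.0, 43.3 and 49.0 CPM in control and 82.3, 96.5 and 91.0 CPM in the combined mutant (log2 fold change 0.90, SE 0.16, adjusted p = 0.032). Fst, which encodes the activin and BMP inhibitor follistatin, was at 79.5, 101 and 82.5 CPM against 134, 137 and 145 CPM (0.66, SE 0.12, adjusted p = 0.032). Wnt6, a Wnt ligand of the surface epithelium, was at 41.7, 36.1 and 43.9 CPM against 60.8, 72.2 and 72.5 CPM (0.76, SE 0.13, adjusted p = 0.026). For each of these 3 genes every mutant library was above every control, control 3 included.

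Bmp8a, another BMP ligand, fell from 2.78, 3.74 and 1.77 CPM to 0.471, 0.0854 and 0.0837 CPM (-3.60, adjusted p = 0.042). In the BMP pathway list of 24 tested genes, 2 rose and 1 fell. Among 40 Wnt ligands, receptors and targets, Wnt6 alone was called. Among 30 genes of follicle stem cells and progenitors Fst alone was called, with 22 above zero (median 0.188), and Krt15 was at 2030, 1710 and 1520 CPM against 1810, 2530 and 1630 CPM with overlapping groups. Of 16 Hedgehog and Eda genes, 17 Notch genes, 15 EGFR ligands and receptors and 22 YAP/TAZ effectors and targets, 0 were called (medians 0.159, -0.0918, -0.0648 and 0.029). An unadjusted p below 0.05 was reached by 13.9% of all genes tested. A missed call does not show that a level is unchanged. Bmp2, Fst and Wnt6 each lost their call in 6 of the 22 alternative analyses, with log2 fold changes between 0.60 and 0.97.

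**Figure D2:**
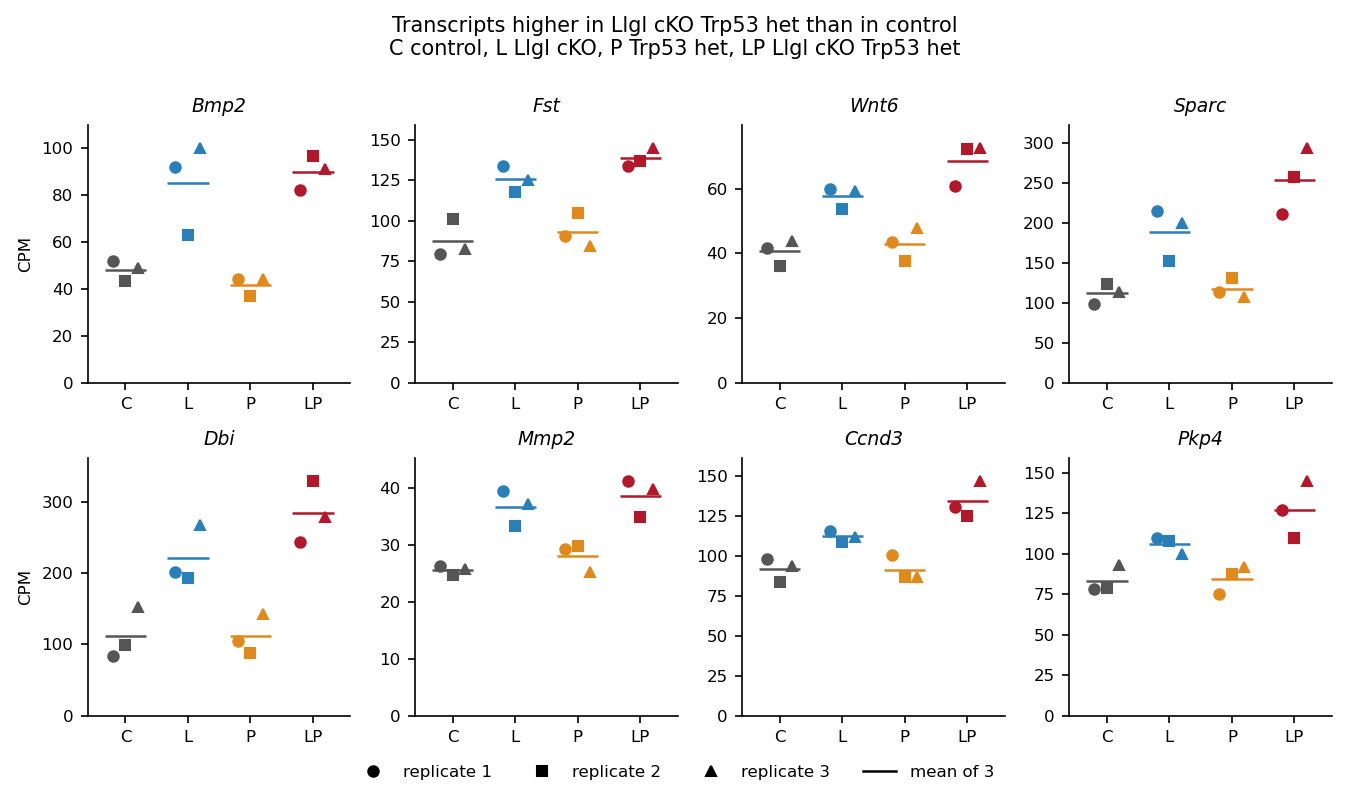
Panels plot CPM on a linear axis from 0 in the 12 libraries for 8 of the genes that rose, with a bar at the mean of 3 mice. Combined mutant libraries lie above the controls in each panel, and the Llgl cKO means lie between the control and combined mutant means.

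Transcripts of other functions also rose. Sparc, a matricellular glycoprotein that binds collagen, was at 98.3, 123 and 113 CPM in control and 211, 257 and 293 CPM in the combined mutant (log2 fold change 1.19, SE 0.17, adjusted p = 0.0096). Mmp2, the gelatinase A protease, was at 26.3, 24.7 and 25.8 CPM against 41.2, 34.9 and 39.9 CPM (0.59, adjusted p = 0.040). The summed level of 16 fibroblast markers not shared with other lists, Sparc included, was 237 to 478 CPM in control and 554 to 729 CPM in the combined mutant. The dermal collagen gene Col1a1 was at 1.31 to 4.19 CPM in control and 1.28 to 2.90 CPM in the combined mutant. Sparc was the 1 gene called among 16 fibroblast markers tested (median 0.0828), a set that differs in part from the 16 summed. Relative to the control mean, the mean log2 CPM of the tested markers was -0.808, -0.0666 and 0.875 in control. In the combined mutant it was 0.556, 0.14 and 0.538, below control 3. The part of dermal cells in the rise of Sparc was not tested.

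Dbi, an acyl-CoA binding protein, was at 84.0, 99.4 and 152 CPM against 244, 329 and 278 CPM (1.34, SE 0.24, adjusted p = 0.032). Ccnd3, the G1 cyclin D3, was at 97.9, 83.5 and 93.9 CPM against 131, 125 and 147 CPM (0.55, adjusted p = 0.040). Pkp4, an armadillo protein of cell junctions, was at 78.0, 78.8 and 93.2 CPM against 127, 110 and 145 CPM (0.61, adjusted p = 0.046) and was the 1 gene called among 15 of the desmosome list. Mutants and controls did not overlap for Dbi, Ccnd3 or Pkp4.

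Pde2a, a phosphodiesterase that degrades cAMP and cGMP, was at 2.13, 2.04 and 1.13 CPM against 6.59, 10.8 and 7.28 CPM (2.24, SE 0.32, adjusted p = 0.010). Further genes that rose were Hebp1, a haem-binding protein (1.93, adjusted p = 0.048), Csf2rb, the shared receptor chain for interleukin 3, interleukin 5 and GM-CSF (1.79, adjusted p = 0.032), Ndufa4l2 (1.21, adjusted p = 0.043), Prr15l (1.73, adjusted p = 0.025), Zfp868 (1.23, adjusted p = 0.045) and the kinase gene Tnk1 (1.04, adjusted p = 0.047). Of 3 mitochondrial tRNA genes tested, mt-Tl1 and mt-Tt rose, with log2 fold changes of 2.42 and 2.74, from control levels of 1.45 CPM or less, and they are short genes that poly(A) libraries catch poorly. Of the 22 alternative analyses, the call was lost in 1 for Pde2a, 2 for Sparc, 3 for mt-Tl1, 5 for Prr15l, 7 for Dbi and 8 for Csf2rb and mt-Tt. It was lost in 10 for Ccnd3 and Zfp868, 12 for Mmp2, Ndufa4l2 and Tnk1, 13 for Pkp4 and 14 for Hebp1. Mitochondrially encoded genes took 0.833% to 1.43% of counts in control and 1.27% to 1.82% in the combined mutant.

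A set of genes changed strongly and under every alternative tried. In all, 17 genes were called in each of the 22 alternative analyses. Of them, 10 carry neither a Gm name nor an RP23 name: Llgl2, Skint3, Skint4, Skint6, Skint9, Stfa1, BC117090, Eno1b, Dera and Acer2. The symbol BC117090 is itself a clone name. Skint genes encode immunoglobulin-superfamily membrane proteins of skin and thymus, of which Skint1 is known to select a class of epidermal gamma-delta T cells. Skint9 was at 65.1, 202 and 165 CPM in control and at 0.0785, 0 and 0 CPM in the combined mutant, with 4819 summed counts against 1 (ratio 5790, 95% interval 1040 to 229000, adjusted p = 0.00093). Skint3 had 2113 counts over control and 0 over the combined mutant, at least 846-fold lower when the mutant group is given a floor of 3 summed counts. Skint4 had 950 counts against 1 (ratio 1140, interval 204 to 45100). These intervals cover counting error only.

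Skint6 was at 25.2, 62.5 and 63.2 CPM in control and at 2.04, 2.82 and 2.01 CPM in the combined mutant (log2 fold change -4.46, SE 0.44, adjusted p = 0.00093). The other Skint genes kept measurable levels: Skint7 was at 25.3, 48.3 and 28.9 CPM against 15.9, 11.2 and 21.9 CPM (-1.07, adjusted p = 0.13), and Skint1 at 26.7, 34.6 and 29.6 CPM against 20.8, 26.0 and 21.8 CPM (-0.41, adjusted p = 0.35). For Skint2 the log2 fold change was 0.54, and for Skint5, Skint8, Skint10 and Skint11 it was -0.66, -0.59, -0.61 and -1.65 (adjusted p 0.29 or higher). In the family, 4 of 11 tested genes fell and 0 rose. In the interval from Skint4 to Skint6 on chromosome 4 (112072016 to 113286973, drawn after the values were seen), 4 of 6 tested genes fell. The family is made of close copies, so counts may be shared or dropped among them.

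The stefin A genes, a cluster of cysteine protease inhibitors, held opposite changes. Stfa1 was at 101, 180 and 335 CPM in control and at 1.57, 2.39 and 2.01 CPM in the combined mutant (log2 fold change -6.69, SE 0.51, adjusted p = 0.00031). BC117090, a near copy in the same cluster, was at 4.91, 6.29 and 8.87 CPM against 103, 175 and 117 CPM (4.27, SE 0.36, adjusted p = 0.00033). Of the 8 stefin A genes tested these were the 1 that fell and the 1 that rose, and reads assigned between such copies are uncertain.

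Eno1b, an enolase gene, was at 22.4, 19.9 and 19.5 CPM in control and 0, 0.342 and 0.167 CPM in the combined mutant (-6.87, SE 0.50, adjusted p = 0.00024). How reads that also fit other enolase genes were counted is not given, so its fall is no measure of total enolase RNA. Dera, deoxyribose-phosphate aldolase, was at 17.5, 20 and 22.3 CPM against 45.4, 45.9 and 42.8 CPM (1.16, SE 0.11, adjusted p = 6e-04). Acer2, an alkaline ceramidase, named after its values were seen, was at 34.2, 39.6 and 38.7 CPM against 14.8, 13.0 and 12.6 CPM (-1.48, SE 0.19, adjusted p = 0.0067). Each of these had replicates close together on both sides and no overlap.

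**Figure D3:**
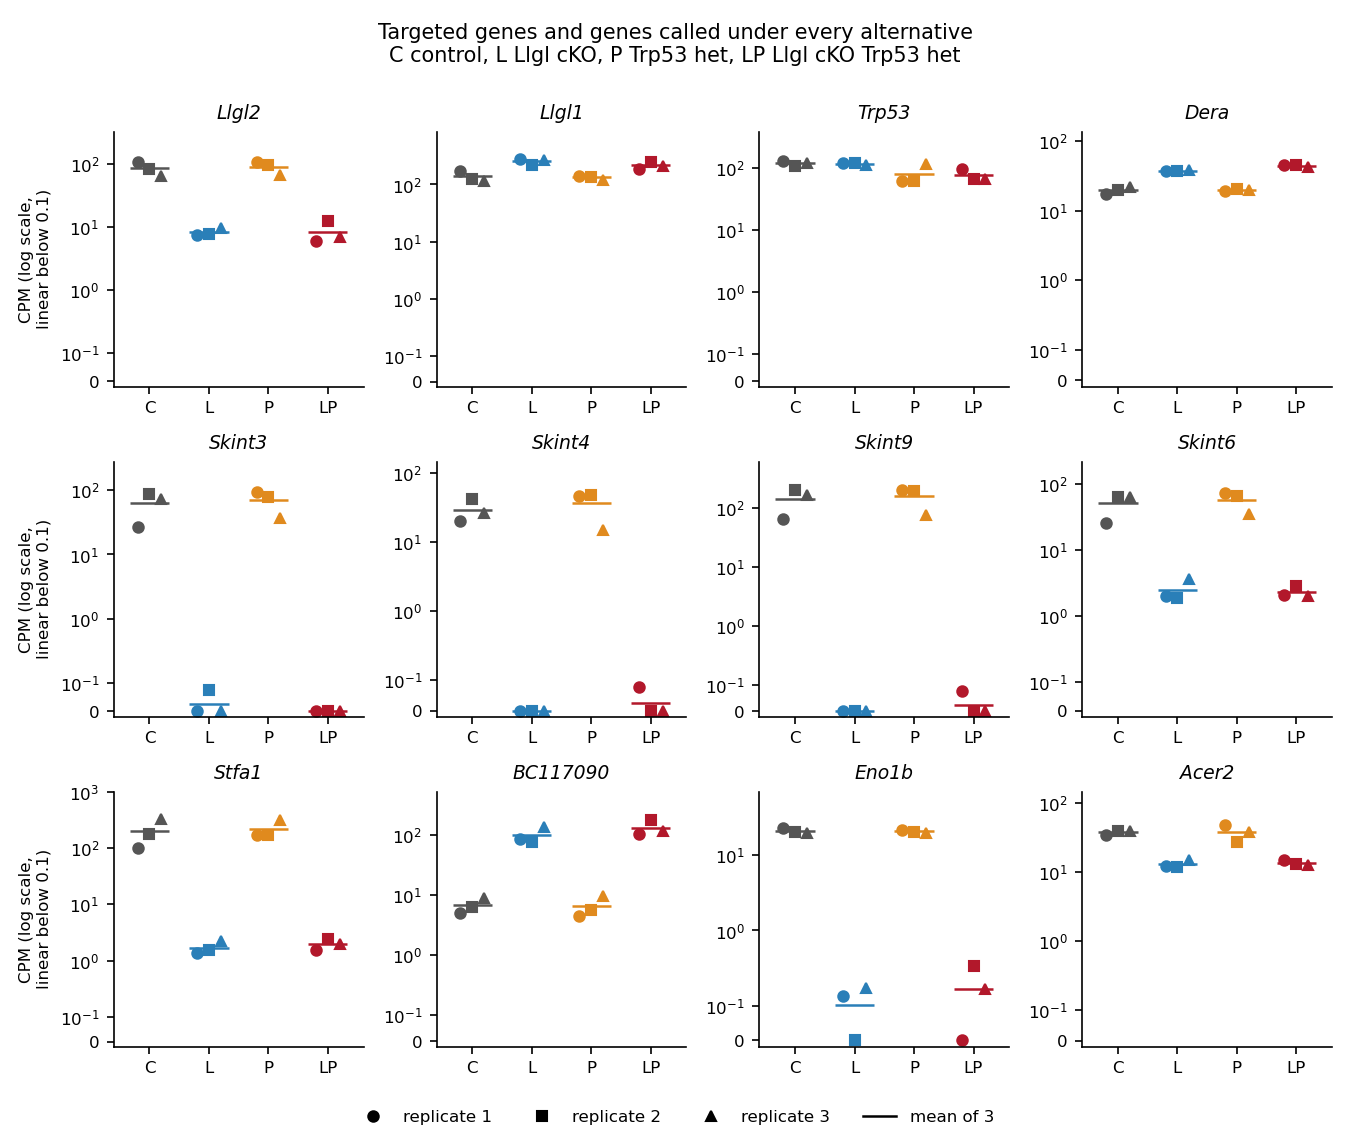
Panels plot CPM in the 12 libraries for the 3 targeted genes and for 9 genes called in each of 22 alternative analyses (log scale, linear below 0.1 CPM so that 0 can be shown, bar at the mean of 3 mice). Outside Llgl1 and Trp53, the combined mutant and Llgl cKO libraries lie to one side and the control and Trp53 het libraries to the other, without overlap.

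Genes of dividing cells were high in control 3, Trp53 het 3, Llgl cKO and the combined mutant, beside control 1 and 2. All 34 genes of the G2 and M phases had positive log2 fold changes (median 0.901) and 0 were called. Mki67, a marker of cycling cells, was at 50, 80.6 and 369 CPM in control and 225, 204 and 277 CPM in the combined mutant (0.49, 95% interval -1.25 to 2.23). Top2a, the mitotic topoisomerase, was at 37.1, 72.6 and 322 CPM against 199, 192 and 277 CPM. In both genes control 3 was above every mutant library and the other controls were below every mutant library. The summed level of the 34 genes was 434, 606 and 2330 CPM in control and 1760, 1970 and 2220 CPM in the combined mutant. It was 1500, 1580 and 1580 CPM in Llgl cKO and 516, 545 and 2720 CPM in Trp53 het, so the level is not particular to the combined mutant. Without control 3 and Trp53 het 3 together, all 34 were called higher (median 1.93), as were 11 of the 28 S phase genes. With all libraries, 0 of the 28 were called (median 0.242). The fit without these 2 libraries called 1139 of all 14761 genes tested, 536 of them higher. Without control 3 alone, 0 of the 34 were called, at the same median of 1.93. Control 3 and Trp53 het 3 stood apart from their groups by these same transcripts. The calls made without them are thus no separate support for a rise.

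**Figure D4:**
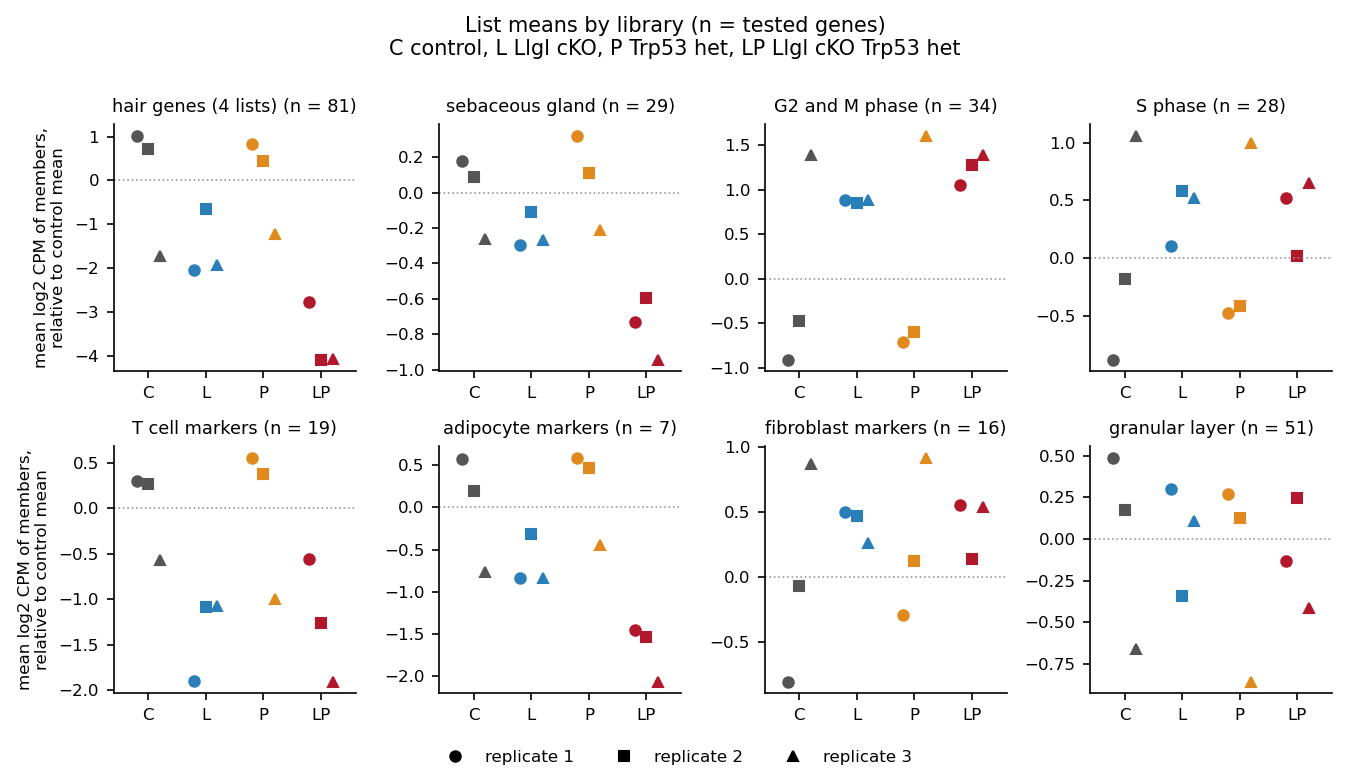
Each panel plots, per library, the mean log2 CPM over the tested genes of a list, relative to the control mean, with a marker shape per replicate. Control 3 and Trp53 het 3 sit with the mutants in the G2 and M phase panel, and in the hair panel the combined mutants are the lowest, at -2.78 to -4.10.

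In the layers of the epidermis between follicles, few genes were called. Of 24 basal genes 0 were called (median 0.18), with Krt5 at 9280, 9010 and 8980 CPM in control and 8190, 10800 and 9270 CPM in the combined mutant, and Krt14 with a log2 fold change of -0.08 (interval -0.44 to 0.28). Of 21 spinous genes, Skint3 and Skint6 fell and 0 rose (median -0.0202), and Krt1 and Krt10, the keratins of the suprabasal layers, had changes of 0.20 and 0.16 with overlapping groups. Of 51 granular and cornified envelope genes 0 were called (median -0.16). Lor, the main cornified envelope protein loricrin, was at 13100, 6600 and 4160 CPM against 7580, 11700 and 6570 CPM, so its spread within control was wider than any difference between groups.

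Genes of polarity and adhesion other than Llgl2 were not called, with the exception of Pkp4. Of 23 apical-basal polarity genes Llgl2 was the 1 that fell (median 0.0085), and Scrib, partner of the Llgl proteins, was at 261, 229 and 236 CPM against 232, 292 and 214 CPM. Cdc42, the GTPase that activates the apical complex, was at 253, 285 and 307 CPM against 261, 290 and 300 CPM. Neither differed beyond its spread, with intervals from -0.27 to 0.31 and from -0.23 to 0.25. Of 17 adherens junction, 19 tight junction, 27 hemidesmosome and basement membrane, 19 planar polarity and 13 spindle orientation genes, 0 were called. Cdh1, E-cadherin, was at 683, 749 and 762 CPM against 803, 1040 and 1030 CPM (0.39, adjusted p = 0.20), higher in each mutant.

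Of 37 p53 target genes 0 were called and 0 were without overlap in either direction (median -0.015, 18 above and 19 below zero). Perp, a p53 target that is also a desmosome component, was at 2720, 3130 and 2780 CPM against 2720, 4060 and 3430 CPM. Sfn, which encodes 14-3-3 sigma, was at 1790, 1310 and 943 CPM against 1060, 1340 and 1350 CPM. Both overlapped between groups. Among 20 genes of endoplasmic reticulum stress 0 were called, 17 were below zero and 7 were lower without overlap (median -0.267). The share lower without overlap over all genes tested was 9.2%. Hspa5, the chaperone BiP, was at 496, 403 and 381 CPM against 306, 232 and 192 CPM (-0.81, adjusted p = 0.076).

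**Figure D5:**
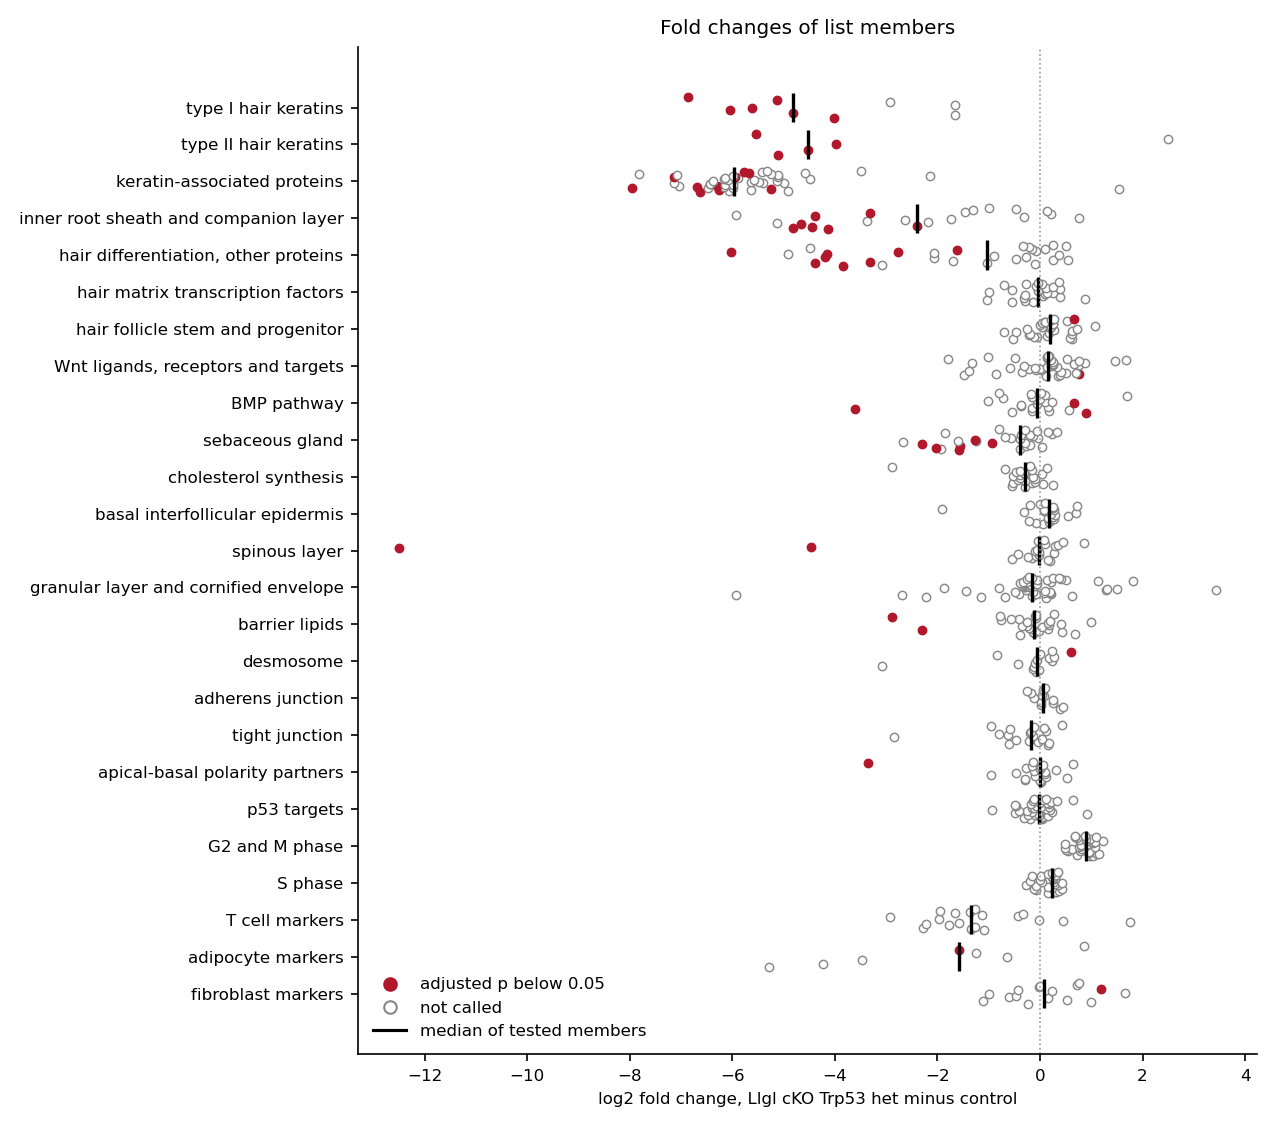
Each point is the log2 fold change (combined mutant minus control) of a tested gene in 25 of the lists, filled where called, with a black bar at the list's median. Hair keratins, keratin-associated proteins and sheath genes lie far to the left, with medians from -5.97 to -2.40, while most other lists centre near 0. Skint3, at -12.5 in the spinous list, has 0 counts in the combined mutant, so its position depends on the model's prior count.

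Markers of other cell types were present at low levels and moved in part. Of 19 T cell markers 0 were called, 17 were below zero and 5 were lower without overlap (median -1.34), against 9.2% of all genes tested. The summed level of the 25 listed T cell markers was 62.9 to 94.8 CPM in control and 49.7 to 59.3 CPM in the combined mutant. Cd3g, a chain of the T cell receptor complex, was at 9.32, 9.27 and 7.01 CPM against 3.85, 0.939 and 0.419 CPM (-2.27, adjusted p = 0.18), and Trbc2 at 13.2, 11.1 and 8.06 CPM against 9.42, 19.1 and 15.6 CPM. Of 19 Langerhans cell and macrophage markers and 15 melanocyte markers 0 were called (medians -0.0557 and -0.0502). Of 10 Merkel cell markers tested 0 were called and 6 were below zero (median -0.362). The listed Merkel cell markers summed to 38.2 to 59.7 CPM in control and 78.7 to 137 CPM in the combined mutant, mostly through Chga, the granule protein chromogranin A, at 41.5, 37.9 and 26.0 CPM against 61.1, 124 and 65.7 CPM (1.26, SE 0.34, adjusted p = 0.11). Erythroid markers summed to under 10 CPM in every library (4.43 to 9.81 in control and 2.56 to 3.43 in the combined mutant), and Slc4a1, the anion exchanger of red cells, fell from 6.54, 6.29 and 1.69 CPM to 0.0785, 0 and 0 CPM (adjusted p = 0.035). Of the 3 erythroid markers tested it was the 1 called, and the other two, Hbb-bs and Hemgn, had log2 fold changes of 0.42 and 0.34 (adjusted p = 0.89 and 0.83).

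Set against each change alone, with the combined mutant libraries shared between comparisons, the 2 tests gave different counts. Against Trp53 het, 198 genes were called (1.36%), 64 higher (0.439%) and 134 lower (0.919%), and 23 of the 81 hair genes fell (median -5.09). Llgl2 was at 109, 97.1 and 66.5 CPM in Trp53 het and Stfa1 at 169, 171 and 313 CPM, and both fell in the combined mutant (adjusted p = 0.00038 and 0.00028). Against Llgl cKO 0 genes were called by edgeR, and 5.12% reached an unadjusted p below 0.05 (747 genes). DESeq2 on the same libraries called 52 of 14582 genes tested, 49 of them lower. Of the 52, 15 are in the 4 hair lists (81 tested genes) or among the 29 other proteins of hair differentiation. Those lists share some genes.

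The median log2 fold change of the hair genes against Llgl cKO was -3, with 55 of 81 lower without overlap (5.13% of all genes tested) and 0 of 81 called by edgeR. Krt82 was at 5.08, 16.4 and 4.49 CPM in Llgl cKO and 1.41, 0.256 and 0.586 CPM in the combined mutant, without overlap (log2 fold change -3.49, 95% interval -5.18 to -1.80, adjusted p = 0.67). Tchh was at 190, 834 and 361 CPM in Llgl cKO against 101, 43.8 and 60.5 CPM (-2.76, interval -4.31 to -1.20, adjusted p = 0.67). Scd1 was at 125, 264 and 163 CPM against 93.1, 71.0 and 52.0 CPM (-1.35, interval -1.95 to -0.76, adjusted p = 0.67). For these 3 genes the interval of the single gene lies below zero and the test across all genes was not passed.

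For other genes the difference between combined mutant and Llgl cKO was small beside that from control, which does not show that the levels are equal. Skint6 was at 1.99, 1.82 and 3.52 CPM in Llgl cKO and 2.04, 2.82 and 2.01 CPM in the combined mutant (log2 fold change -0.08, interval -1.08 to 0.93), and BC117090 at 86.8, 75.7 and 135 CPM against 103, 175 and 117 CPM (0.41, interval -0.25 to 1.07). Bmp2 was at 92.0, 62.9 and 100 CPM in Llgl cKO, with a difference of 0.08 (interval -0.27 to 0.43), and Dera at 37.2, 37.6 and 38.1 CPM, with a difference of 0.25 (interval 0.01 to 0.48, adjusted p = 0.94). Trp53 itself was at 120, 122 and 112 CPM in Llgl cKO, without overlap with the combined mutant (-0.61, interval -1.12 to -0.10, adjusted p = 0.88).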

How the data were processed

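Skin epidermis of 12 newborn mice, 3 per genotype by the stated design, was profiled by RNA-seq from stranded mRNA libraries, per the labels' protocols. The deposited table holds the authors' raw read counts per gene (46078 genes), with no normalization. STAR, featureCounts 1.6.4, DESeq2 2.11.40.8 and GRCm38 are named in the submitters' processing notes, while annotation and strand setting are not given in the sources used here. Each of the 12 columns was used, and 0 were left out.

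The analysis used edgeR 4.0.16 (R 4.3.3): TMM scaling, filterByExpr over 4 groups (minimum count 10), and a robust quasi-likelihood fit of group means to all 12 libraries (8 residual degrees of freedom, two-sided, Benjamini-Hochberg). Adjusted p-values are edgeR's unless DESeq2 (1.42.0, an alternative) is named. The biological coefficient of variation was 23.8%. P-values rest on the spread between mice within groups, pooled over the 4 groups and partly shared across genes. Level is CPM on TMM-scaled library sizes. Folds with 0 to 3 counts in a group use summed counts, a floor of 3 counts over the group or an exact binomial 95% interval. Lists (55, with 1117 genes, 925 tested) carry no test. Positions came from a GRCm38 annotation, and promoters from RefSeq. The fit was also run on simulated counts with the same spread for every gene and no library standing apart, unlike these data. That run does not bear on how far the calls depend on single libraries.

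The comparison, lists and rules were chosen with earlier results of these data known. Named genes were the targets, the 12 called genes with the largest rise and fall (at least 1 CPM, no overlap, no predicted name), the 3 called members with the smallest p and the 2 most abundant of each list, Skint genes, and the 6 most abundant called genes each way. Not each of them is printed. Alternatives were DESeq2, other scalings and filters, the 2 groups alone, sex or replicate number as a term, a minimum 1.5-fold change, each library left out, and control 3 with Trp53 het 3 left out.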

Additional observations from a re-analysis of the deposited data

How the results depend on the processing

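Between combined mutant and control, 182 genes were called. DESeq2 called 644, a fit of the 2 groups alone 49, a minimum 1.5-fold change 29, and the fit without control 3 and Trp53 het 3 together 1139. Leaving out each library in turn gave 25 to 351: 31 without control 1, 25 without control 2, 351 without control 3, 43 without Trp53 het 2, 37 without combined mutant 2 and 27 without combined mutant 3. Against Trp53 het, 198 became 722 with DESeq2, 117 with the 2 groups alone, 30 with the minimum fold, 1088 without control 3 and Trp53 het 3, and 24 to 322 with a library left out. Against Llgl cKO, 0 became 52 with DESeq2, 1 without control 3 and Trp53 het 3, and 0 to 1 with a library left out. The cause was not tested. With the replicate number as a block, 347, 376 and 0 genes were called in the 3 comparisons. Same-numbered control and combined mutant libraries had correlations of deviations of -0.13, -0.12 and 0.18, so the numbers were not taken to pair these 2 groups. Other scalings and filters and sex as a term kept the main count within 1.5 times (142 to 270), although without the low-count filter 0 type I and type II hair keratins were called. For the 64 called genes followed through the 22 alternatives, 0 reversed direction, and genes not called were not judged. The alternatives reuse the same libraries, and part of these genes were picked for groups without overlap. A reversal could hardly occur, so its absence is no separate support. The depth was 6738720 to 14509507 counts per library.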

Other observations

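Further genes were chosen after their values were seen. Cyp2g1, a cytochrome P450 gene, was at 104, 84.8 and 67.7 CPM in control, 41.7, 70.7 and 19.6 CPM in Llgl cKO, 103, 107 and 81.2 CPM in Trp53 het, and 11, 12.4 and 9.96 CPM in the combined mutant. It fell against control (log2 fold change -2.94, SE 0.38, adjusted p = 0.0069) and lost its call in 1 of the 22 alternative analyses. Against Llgl cKO the difference was -1.99 (95% interval -2.80 to -1.17, adjusted p = 0.67).

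The pseudogenes Gm9625 and Gm8730 were called higher with 1 mutant library at the control level. Gm9625 was at 6.54, 6.8 and 5 CPM in control and at 352, 6.40 and 314 CPM in the combined mutant. Gm8730 was at 9.81, 5.10 and 5.32 CPM against 405, 7.43 and 382 CPM. In Llgl cKO all 3 libraries were high, at 149 to 175 CPM for Gm9625 and 179 to 197 CPM for Gm8730. Combined mutant 2 was thus unlike combined mutant 1 and 3 at both genes, and the adjusted p of 0.043 for each rests on a mean of unlike libraries.

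Catsperg2, known from the calcium channel of sperm, had 1 count over control and 75 over the combined mutant, a ratio of 62.4 (95% interval 10.9 to 2500, counting error only). Within 2 Mb of the targeted genes, 1 of 79 tested genes was called near Llgl1, 3 of 83 near Llgl2 and 2 of 104 near Trp53. Over all genes tested 1.25% were called, and counts this small cannot set these regions apart. The called genes were Nat9, St6galnac2 and Mettl23 near Llgl2, and Tnk1 and 6330403K07Rik near Trp53. St6galnac2, a sialyltransferase gene, was at 20.8, 19.3 and 23.3 CPM in control and 9.58, 10.2 and 8.71 CPM in the combined mutant (-1.16, SE 0.14, adjusted p = 0.0028).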
